A study of Homo sapiens with 3 samples.

Results

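The promoters of *MTAP*, *CDKN2A*, *CDKN2B* and *DMRTA1* line the 9p21 locus on chromosome 9, the stretch of the genome known for its association with coronary artery disease. Their contacts were taken from the promoter capture Hi-C (PCHi-C) calls of hESC-CM, cardiomyocytes made from human embryonic stem cells. A promoter fragment was a HindIII restriction fragment that the calls list as the promoter side and that holds an annotated transcript start (GENCODE v44 lifted to GRCh37) of one of the 4 genes. This gave 5 promoter fragments of 19075, and all contacts of these fragments were kept, 68 distinct contacts of 200587 in the union of 3 replicates. The replicates held 45, 44 and 41 of them (mean 43.3 ± 2.08 SD, n = 3).

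The hESC-CM came from the WA09 (H9) line at passage 32, were differentiated with a commercial kit, enriched with lactate and crosslinked in 2% formaldehyde. The labels name 3 biological replicates of this 1 condition and no other group, so no comparison between conditions was made. Purity was stated to be at least 80 to 90% by the cardiac markers myosin heavy chain and TNNT2, and since contacts and not transcripts were measured, the cell type could not be checked against its markers here. The replicates had 112473, 109731 and 110740 contacts in all. Each contact carries a CHiCAGO score, which grows with the excess of ligated read pairs over a background set by distance and technical noise, and only contacts with a score of at least 5 are listed. A contact missing from a replicate may therefore lie just under that score. The depth behind a score is unknown, since no read counts entered these values.

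*CDKN2A* encodes the cell cycle inhibitor p16INK4a and, from an upstream first exon, the p53 activator ARF, while its neighbour *CDKN2B* encodes the related inhibitor p15INK4b. Both are kept silent in many cells by Polycomb proteins and rise with senescence. *MTAP* encodes the first enzyme of methionine salvage, *DMRTA1* encodes a DM-domain transcription factor, and the long non-coding RNA *CDKN2B-AS1* (ANRIL) runs from the ARF promoter across *CDKN2B* towards *DMRTA1*. The coronary risk association lies over the distal part of *CDKN2B-AS1* and the gene-poor DNA next to it, which is why contacts of that stretch are of interest.

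Sequences of a few contacted fragments show what was joined to these promoters, and all are given from the forward strand of GRCh37. The first 3 are whole HindIII fragments called with the *MTAP* promoter in all 3 replicates, chosen because they are short enough to print, with the letters left from the cut sites in capitals. The first, intergenic in the interferon gene cluster, is chr9:21251922-21252187. The second, also intergenic, is chr9:21320120-21320287. The third lies in an exon of *KLHL9* at chr9:21334575-21334863.
Interferon cluster fragment of 266 bp: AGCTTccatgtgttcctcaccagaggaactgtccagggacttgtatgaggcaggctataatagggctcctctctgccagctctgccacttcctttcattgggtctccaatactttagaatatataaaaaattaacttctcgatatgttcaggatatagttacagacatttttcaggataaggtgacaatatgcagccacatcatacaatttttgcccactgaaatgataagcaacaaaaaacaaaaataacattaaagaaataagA
Interferon cluster fragment of 168 bp: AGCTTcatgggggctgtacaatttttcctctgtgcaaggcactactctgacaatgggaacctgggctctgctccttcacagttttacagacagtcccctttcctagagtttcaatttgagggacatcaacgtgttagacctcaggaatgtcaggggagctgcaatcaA
*KLHL9* exon fragment of 289 bp: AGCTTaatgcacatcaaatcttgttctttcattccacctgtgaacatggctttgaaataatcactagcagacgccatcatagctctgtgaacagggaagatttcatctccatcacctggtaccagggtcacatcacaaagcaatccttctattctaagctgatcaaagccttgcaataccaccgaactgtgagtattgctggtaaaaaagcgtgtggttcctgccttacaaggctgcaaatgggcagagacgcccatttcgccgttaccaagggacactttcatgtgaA
The next sequence is the middle of the intergenic fragment that the *MTAP* and *CDKN2B* promoters both contacted in all 3 replicates. It is chr9:22238462-22238761, between the end of *CDKN2B-AS1* and *DMRTA1*, and nothing in it is marked.
Shared intergenic fragment, central 300 bp: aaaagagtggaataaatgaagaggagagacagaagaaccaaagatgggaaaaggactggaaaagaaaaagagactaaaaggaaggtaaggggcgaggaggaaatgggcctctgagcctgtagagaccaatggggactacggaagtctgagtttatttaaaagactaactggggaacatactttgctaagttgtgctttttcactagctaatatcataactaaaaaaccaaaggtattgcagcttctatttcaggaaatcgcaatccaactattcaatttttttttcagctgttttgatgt
The last is chr9:21813999-21814090 in the 5′ part of *MTAP*, from a fragment contacted by the *CDKN2A*, *CDKN2B* and *DMRTA1* promoters. Its capitals mark the single match to the CTCF core motif described further on.
*MTAP* gene body fragment, 92 bp around the match: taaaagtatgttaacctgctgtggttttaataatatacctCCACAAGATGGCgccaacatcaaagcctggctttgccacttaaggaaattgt

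The 5 fragments did not cover all the starts of the 4 genes. The *MTAP* fragment (chr9:21801459-21803557, 2099 bp) holds 8 of the 13 annotated *MTAP* starts, and the other 5 lie in fragments inside the gene that neither side of the calls lists. *CDKN2A* has 14 annotated starts, of which 6 lie in promoter fragments. The other 8, with the p16INK4a starts between positions 21974826 and 21974865, lie in the HindIII fragment chr9:21971265-21976889 (5625 bp), which no replicate listed on either side. The values below therefore say nothing of the p16INK4a promoter itself. The ARF starts share the largest fragment (chr9:21991197-22008507, 17311 bp) with the start of *CDKN2B-AS1* and 1 of the 3 *CDKN2B* starts, that of a retained-intron transcript, and it is called the *CDKN2A*/*CDKN2B-AS1* fragment here. A further fragment (chr9:21960711-21971264, 10554 bp) holds a single *CDKN2A* start, at 21970466, from a transcript without a defined coding sequence. It also holds the divergent transcript *CDKN2A-DT* and is called the *CDKN2A-DT* fragment. Both protein-coding starts of *CDKN2B* lie in chr9:22008594-22011170 (2577 bp), and the only *DMRTA1* start in chr9:22441582-22448080 (6499 bp).

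*MTAP* had the most contacts of the 5. Its promoter fragment was called with 20, 24 and 20 fragments in replicates 1, 2 and 3 (mean 21.3 ± 2.31 SD, n = 3), and 31 in the union. This was more than 92.3% of all promoter fragments, whose median was 6. Captured fragments without any listed contact are not among these promoter fragments. The *CDKN2B* fragment had 12, 8 and 12 contacts (10.7 ± 2.31, union 16). The *CDKN2A*/*CDKN2B-AS1* fragment had 9, 5 and 6 (6.67 ± 2.08, union 11), and the union fell to 7 without replicate 1. The *DMRTA1* fragment had 5, 6 and 4 (5 ± 1, union 8). All of these unions lay above the median promoter fragment. The *CDKN2A-DT* fragment had only 2, 2 and 1 contacts (1.67 ± 0.577, union 5), and the union fell to 3 without replicate 1 or without replicate 2.

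**Figure D1:**
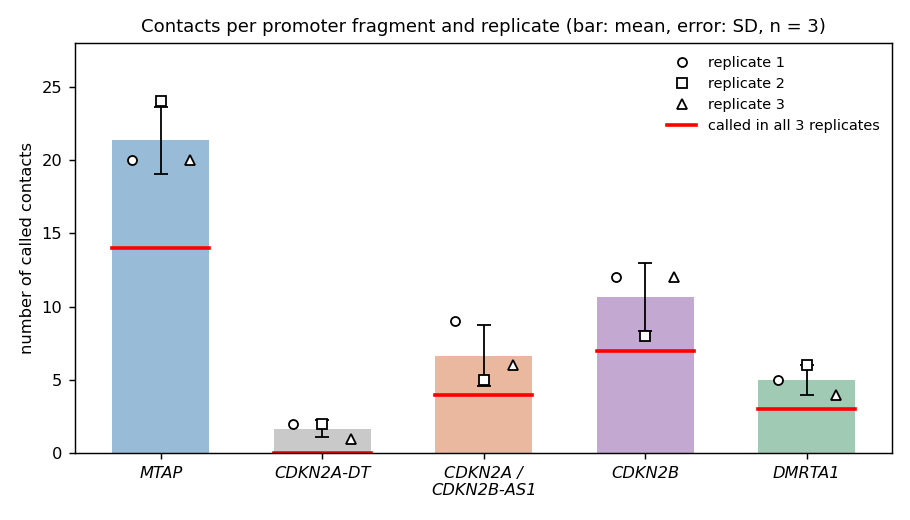
Number of called contacts (vertical axis) of each of the 5 promoter fragments, with 1 symbol per replicate, bars for the mean and error bars for the SD (n = 3); red lines mark contacts called in all 3 replicates. *MTAP* lies between 20 and 24 in every replicate, above every other fragment, and its red line is at 14.

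The replicates of *MTAP* overlapped with those of no other fragment, and of the 10 pairs of fragments 8 did not overlap. How often this holds for pairs of all promoter fragments was not counted, so it is not read as a trait of the locus. An exact two-sided paired permutation test over 3 replicates cannot give a p under 0.25, which 9 of the pairs reached, with an adjusted p = 0.278 over the 10 pairs. The exception was the *CDKN2A*/*CDKN2B-AS1* fragment against *DMRTA1* (p = 0.5 in the exact permutation test).

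All 3 replicates called 27 of the 68 contacts, a further 8 were called by 2 replicates and 33 by 1. The share called in all 3 was 39.7% (95% Wilson interval 28.9 to 51.6, which covers counting error only), against 24% of the 200587 contacts of the whole data. All 27 were also called on the merged replicates, where 50 of the 68 were. By fragment, 14 of 31 *MTAP* contacts, 7 of 16 *CDKN2B* contacts, 4 of 11 of the *CDKN2A*/*CDKN2B-AS1* fragment and 3 of 8 of *DMRTA1* were called in all 3, the *MTAP*–*DMRTA1* contact counting under both. None of the 5 *CDKN2A-DT* contacts was called in more than 1 replicate, nor on the merged replicates. A contact in all 3 replicates was found for 51.9% of all promoter fragments, and 4 of the 5 had one.

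**Figure D2:**
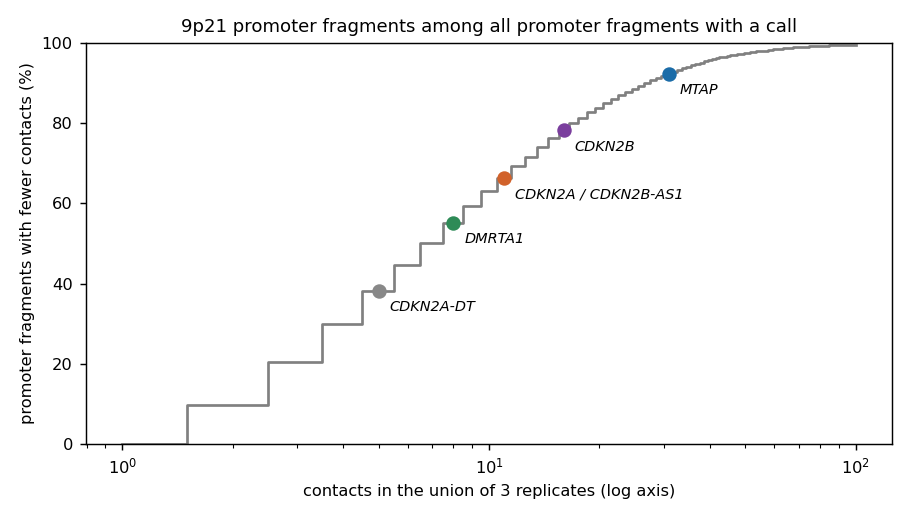
Share of all 19075 promoter fragments with fewer contacts (vertical axis, %) against the number of contacts in the union of 3 replicates (horizontal log axis), with the 5 fragments of the locus as points. *MTAP* lies at 92.3% and *CDKN2A-DT* at 38.2%, below the median of 6 contacts.

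The share of contacts over 1 Mb was lower for these promoters than in the whole data. In the whole data 81118 same-chromosome contacts were over 1 Mb and 111714 were at most 1 Mb. At the locus 12 of 66 same-chromosome contacts were over 1 Mb. The median distance of these 66 was 473 kb between fragment midpoints, and the shortest contact in all 3 replicates spanned 184 kb. Only 1 contact was under 150 kb, from *DMRTA1* to a fragment 135 kb away with a score of 5.11 in replicate 1 alone. By fragment this was 1 of the 5, against 28.9% of all promoter fragments with a contact that short. The share of all contacts under 150 kb is not given here. Between 150 and 250 kb, 11 of 18 contacts (61.1%) had a call in every replicate, against 39% of all contacts of that span. For spans of 250 to 500 kb it was 12 of 17 (70.6%) against 34.5%, and for 500 kb to 1 Mb 4 of 18 (22.2%) against 26.9%. For the locus as for the whole data, the share fell at the longest spans, and within 1 Mb 27 of 54 contacts were called in all 3 replicates (50%, against 34%). None of the 12 contacts over 1 Mb and neither of the 2 with other chromosomes was called in more than 1 replicate, while 11.8% of all same-chromosome contacts over 1 Mb were called in all 3.

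**Figure D3:**
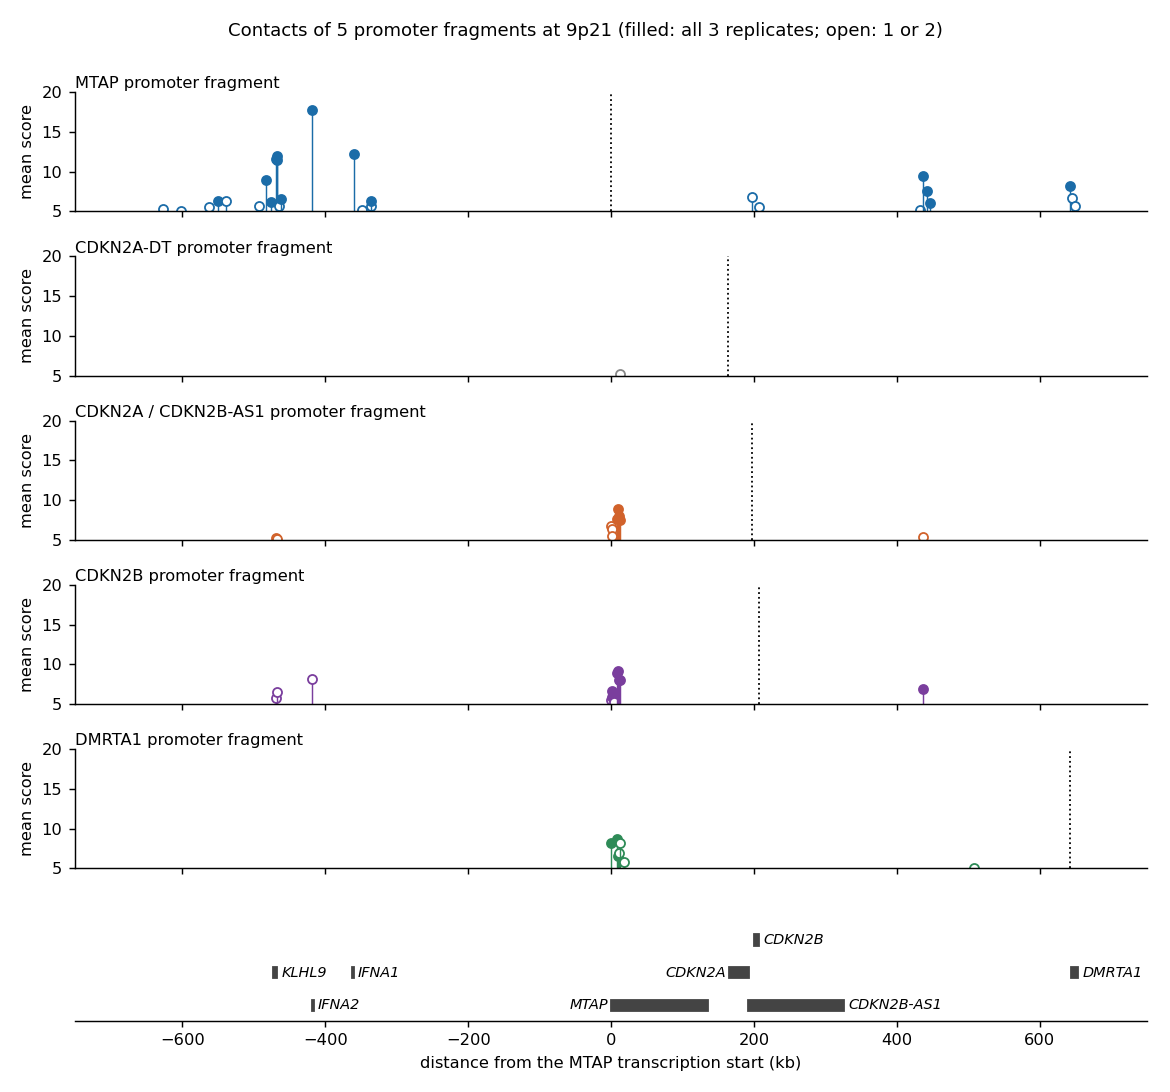
Mean score over the replicates that called each contact (vertical axis) against the distance of the contacted fragment from the *MTAP* start (horizontal axis, kb), 1 panel per promoter fragment, with dotted lines at the promoter and gene positions below; filled points were called in all 3 replicates and open points in 1 or 2. Filled points gather in the interferon cluster and beyond *CDKN2B-AS1* for *MTAP*, and in the 5′ part of *MTAP* for the *CDKN2A*/*CDKN2B-AS1*, *CDKN2B* and *DMRTA1* fragments.

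The *MTAP* promoter reached in both directions. On the telomeric side it was called with 18 fragments of the type I interferon gene cluster (12, 16 and 11 per replicate, mean 13 ± 2.65), 10 of them in all 3 replicates. On the centromeric side it was called with *DMRTA1* and with the gene desert in front of it, 4 contacts in all 3 replicates. It was called with no fragment of its own gene.

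By replicate scores the strongest contact of the locus joined *MTAP* to the fragment with the start of *IFNA2*, a type I interferon (chr9:21379569-21389410), over 418 kb. Its scores were 19.87, 19.45 and 14.03 in replicates 1, 2 and 3 (mean 17.8 ± 3.26 SD). Replicate 3 was the lowest, and in each replicate this was the highest score of any contact of the 5 promoters. On the merged replicates it scored 16.63, below 3 fragments of *KLHL9* that *MTAP* also contacted, which scored 20.39, 19.92 and 19.2 there. Where a pair of promoter fragments was listed in both orders, the higher score was kept. Whether this bears on the *IFNA2* scores was not tested. The fragment with the start of *IFNA1*, another interferon (chr9:21439247-21447185), scored 14.28, 11.31 and 11.11 with *MTAP* (12.2 ± 1.78). It is 94.8% identical to DNA elsewhere in the cluster (chr9:21366567-21368522) over 1958 aligned bases, so that short reads in that stretch could be assigned to the wrong copy. How far this bears on its score was not tested.

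A block of 21.2 kb around *KLHL9*, a substrate adaptor of a ubiquitin ligase, held 7 fragments called with *MTAP*, 6 of them in all 3 replicates. The *KLHL9* promoter fragment itself (chr9:21334864-21335693) scored 12.42, 10.46 and 12.87 (11.9 ± 1.28). Its neighbour of 2424 bp, with *KLHL9* exon sequence, scored 10.98, 11.6 and 12.27 (11.6 ± 0.645). The printed *KLHL9* exon fragment of 289 bp scored 11.41, 11.22 and 11.76 (11.5 ± 0.274), the smallest spread of the 3. These adjacent fragments had nearly the same level, with differences inside the spread between replicates. The printed fragment of 168 bp at the far end of the block scored 7.92, 9.86 and 9.01, and the one of 266 bp, at 550 kb from *MTAP*, 5.45, 7.5 and 6.03. The contact of the cluster nearest to *MTAP* that all 3 replicates called was an intron of *MIR31HG*, the host transcript of a microRNA, with 6.47, 6.85 and 5.7.

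*CDKN2B* and the *CDKN2A*/*CDKN2B-AS1* fragment shared a target on the other side, the first 15 kb of *MTAP*. A block (chr9:21801459-21816784, 15.3 kb), from the *MTAP* promoter into its 5′ introns and exons, held 8 contacts of *CDKN2B*, 6 in all 3 replicates. It held 7 contacts of the *CDKN2A*/*CDKN2B-AS1* fragment, 4 in all 3 replicates, and 5 of *DMRTA1*, 3 in all 3. The *CDKN2A-DT* fragment reached it once, at 5.25 in replicate 2. Within the block the 4 fragments between 21810046 and 21816784 carried the highest scores for *CDKN2B* and for the *CDKN2A*/*CDKN2B-AS1* fragment.

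The highest of these by mean score over replicates was an intronic fragment of 1678 bp at chr9:21811773-21813450, which holds the pseudogene *TUBB8P1*. With *CDKN2B* it scored 10.85, 8.49 and 8.36 (9.23 ± 1.4), and with the *CDKN2A*/*CDKN2B-AS1* fragment 10.65, 8 and 8.06 (8.9 ± 1.51). Replicate 1 was the highest for both promoters. With *DMRTA1*, 632 kb away, the same fragment scored 5.41, 6.56 and 7.88 (6.62 ± 1.24), so that the *DMRTA1* range lay below both others.

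Its neighbour chr9:21810046-21811772 scored 10.19, 8.94 and 7.73 with *CDKN2B* (8.95 ± 1.23). On the merged replicates it was above the fragment before for *CDKN2B*, at 15.59 against 15.03. It scored 8.48, 7.17 and 7.11 with the *CDKN2A*/*CDKN2B-AS1* fragment (7.59 ± 0.774). With *DMRTA1* it scored 7.59, 12.15 and 6.37 (8.7 ± 3.05), where replicate 2 stood well above the others. The ranges of the 3 promoters overlapped, while *CDKN2B* scored above the *CDKN2A*/*CDKN2B-AS1* fragment within each replicate, here as on the fragment before.

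On the other side, chr9:21813451-21814400, from which the CTCF motif is printed, scored 8.21, 8.2 and 7.82 with *CDKN2B* (8.08 ± 0.222). With the *CDKN2A*/*CDKN2B-AS1* fragment it scored 9.57, 6.83 and 7.74 (8.05 ± 1.4), and with *DMRTA1* 7.11 and 6.86 in replicates 2 and 3 only. The last fragment of the block, chr9:21814401-21816784, scored 8.39, 8.29 and 7.47 with *CDKN2B* (8.05 ± 0.505) and 7.84, 7.36 and 7.15 with the *CDKN2A*/*CDKN2B-AS1* fragment (7.45 ± 0.354). It was the only fragment called with 4 of the 5 promoters, since *DMRTA1* had it at 8.26 in replicate 1 and *CDKN2A-DT* at 5.25 in replicate 2. Among the 7 contacts of *CDKN2B* that every replicate called, the 4 highest mean scores thus fell on these 4 adjacent fragments. They were also the only 4 that every replicate called for the *CDKN2A*/*CDKN2B-AS1* fragment.

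The same promoters also met directly. The *MTAP* and *DMRTA1* fragments, 642 kb apart, were called with each other at 9.69, 6.93 and 8.11 (8.24 ± 1.38), the longest contact in all 3 replicates. *MTAP* and *CDKN2B* scored 5.32 in replicate 1 and 5.78 in replicate 3, and *MTAP* and the *CDKN2A*/*CDKN2B-AS1* fragment 6.77 in replicate 1 alone. Of these 3 contacts between promoters of the locus, only the first was called in every replicate, and all 3 were called on the merged replicates, at 10.7, 9.37 and 8.13.

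**Figure D4:**
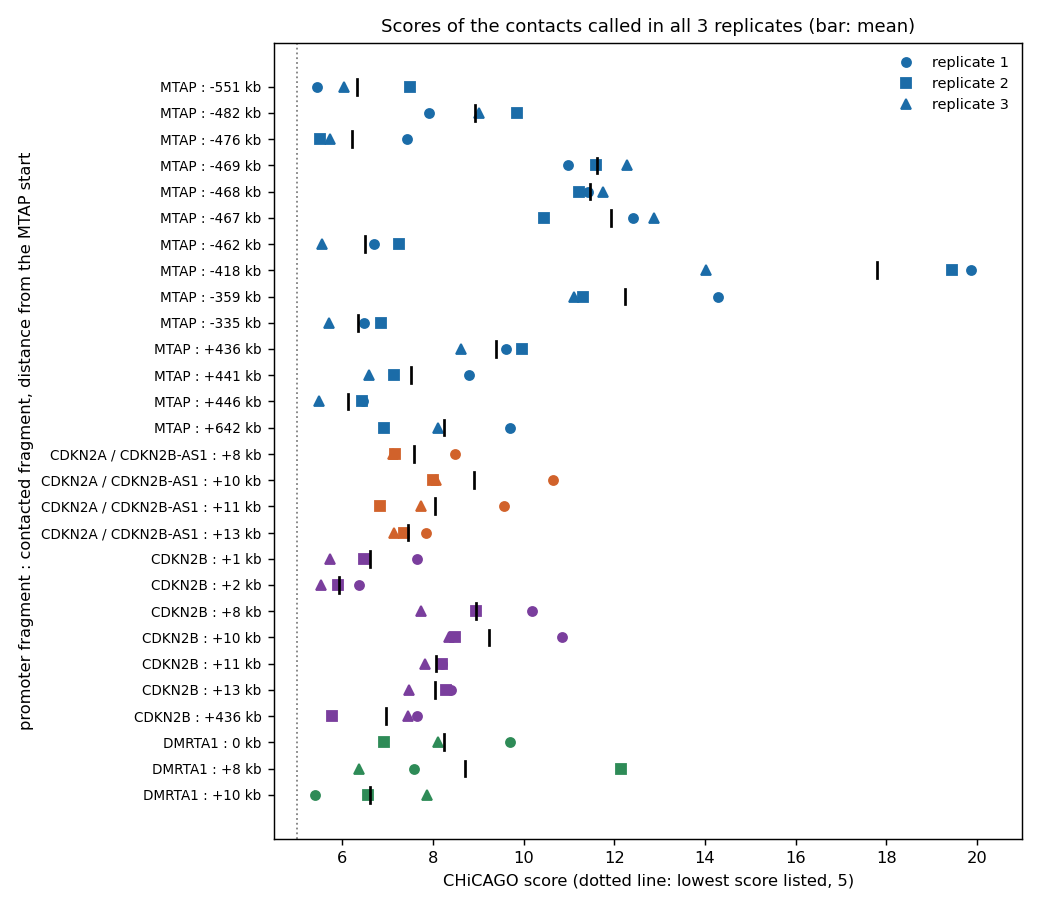
CHiCAGO scores (horizontal axis) of the contacts called in all 3 replicates, 1 line per promoter fragment and contacted fragment, labelled with the distance from the *MTAP* start; symbols are replicates, black bars are means, and the *MTAP*–*DMRTA1* contact is drawn under both. The *MTAP*–*IFNA2* contact has the highest mean over replicates, 17.8, though not the highest score on the merged replicates, and the contacts of *CDKN2B* and *CDKN2A*/*CDKN2B-AS1* with the *MTAP* gene body lie mostly between 6 and 11.

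Beyond *CDKN2B-AS1* the gene desert held a block of 13.8 kb (chr9:22235907-22249740) with 3 fragments called with *MTAP* in all 3 replicates. The first of them, chr9:22235907-22241317, from which 300 bp are printed, scored 9.62, 9.96 and 8.62 with *MTAP* (9.4 ± 0.697) at 436 kb. It scored 7.64, 5.78 and 7.45 with *CDKN2B* (6.96 ± 1.02) at 229 kb. The *MTAP* scores were above those of *CDKN2B* in every replicate. Each score is set against a background that depends on distance, and whether the contact itself was stronger with *MTAP* was not tested. The *CDKN2A*/*CDKN2B-AS1* fragment was called with it at 5.34 in replicate 3 alone. The next fragment scored 8.8, 7.14 and 6.59 with *MTAP*, and the one after it 6.45, 6.43 and 5.49, so that the score fell with each step from the first fragment in all 3 replicates. No promoter outside the locus was called with the first fragment in any replicate.

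The stretch of *CDKN2B-AS1* beyond the *CDKN2B* start (chr9:22009305-22128102, 119 kb) held almost no calls. Apart from the *CDKN2B* promoter fragment at its edge, it was called with none of the 5 promoters in any replicate. Of the 37 other HindIII fragments in it, 3 were listed, each with a promoter several Mb away and in 1 replicate. These were the shared fragment of the DNA repair gene *APTX* and the co-chaperone gene *DNAJA1* (5.25, replicate 1), *CAAP1*, a regulator of apoptosis (6.06, replicate 3), and *C9orf72*, a gene of membrane trafficking (5.77, replicate 1). None was called on the merged replicates. On the merged replicates 1 contact with *MTAP* appeared there, at 5.01, just over the listing score. The whole stretch lies within 150 kb of the *CDKN2B* promoter, a span over which 28.9% of all promoter fragments had any call, as above. Whether contacts with a score under 5 were present there was not tested.

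From the end of *CDKN2B-AS1* to the *DMRTA1* start (319 kb), 8 contacts ended, without those between promoters of the locus. Of these, 7 belonged to the 5 promoters, and the 4 called in all 3 replicates were all theirs, 3 of *MTAP* and 1 of *CDKN2B*. The single other contact was with *IFNA1*, at 8.05 in replicate 1.

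The promoters of the locus had contacted fragments in common. Of 51 distinct contacted fragments, 11 were called with more than 1 of the 5 promoters, 3 with 2, 7 with 3 and 1 with 4. The 4 fragments from 21810046 to 21816784, which lie side by side, and the first intergenic fragment were called with promoters of the locus only, of all 19075. How many fragments of the whole data are shared, or called with nearby promoters only, was not counted. Neither count is therefore read as particular to the locus. The closest match by shared fragments was that of *CDKN2B* and the *CDKN2A*/*CDKN2B-AS1* fragment, 10.0 kb apart, with 10 fragments in common, 62.5% and 90.9% of their contacts (Jaccard index, shared over all, 0.588). *DMRTA1* came next, with 5 in common with each (0.357 with the *CDKN2A*/*CDKN2B-AS1* fragment and 0.263 with *CDKN2B*), although it lies 435 kb from *CDKN2B*. *KLHL9* was the third for both, at 0.130 and 0.148. The highest indices of *MTAP* were lower, at 0.0986 for *SLC24A2*, a sodium/calcium exchanger gene about 2015 kb away, 0.0930 for *CDKN2B* and 0.0877 for *CAAP1*. The third for *DMRTA1*, *RNU6-264P* (0.0833), rested on 1 shared fragment, as did all 3 for *CDKN2A-DT* (0.0833 or less).

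The contacts over 1 Mb were each called in 1 replicate, with scores between 5.01 and 13.83. Of the 12, 5 ended at 26 to 27 Mb on chromosome 9. That of *CDKN2B* at 5.01 ended in intergenic DNA (chr9:26545961-26546145), and the others around *CAAP1*, *PLAA* and *IFT74*. The share of all contacts over 1 Mb that end there is not given here. The highest joined *MTAP* to the *CAAP1* promoter (chr9:26890588-26893264) over 5089 kb at 13.83 in replicate 3, and it scored 6.37 on the merged replicates. *CDKN2B* was called with an intron of *IFT74*, a gene of intraflagellar transport (chr9:26947690-26949395), at 12.37 in replicate 1. Neither was called in another replicate. Directly adjacent fragments were called with *MTAP*, which for the *IFT74* intron is a different promoter from *CDKN2B*. How often contacts over 1 Mb have such a neighbour was not counted. Next to the *CAAP1* promoter, chr9:26893265-26893471 scored 5.14 in replicate 2. Next to the *IFT74* intron fragment, chr9:26944689-26947689 scored 5.32 in replicate 3. Of all same-chromosome contacts over 1 Mb with a score of at least 10 in a replicate, 24.8% were called in 1 replicate only.

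Sequence features that the choice of promoters did not use were also read. CTCF, the zinc-finger protein that holds many chromatin loops, binds a motif whose core of 12 positions was searched on both strands. Of the 21 fragments contacted in all 3 replicates, 1 (4.76%) held a match, at chr9:21814039-21814050 on the forward strand, shown in capitals above. Among fragments of like length (within 20%), 7.42% held one on average. None of the 5 promoter fragments held a match. A match is a description of letters, and its absence says nothing of CTCF itself. The GC content of the 21 fragments ran from 28.6 to 59.0%, and the median over all interacting fragments of the data was 40.3%. That of the *MTAP* promoter fragment was 54.6%, against a median of 46.3% over all promoter fragments. Of the 24 distinct promoter and contacted fragments together, 20 were long enough to test, and none had a copy of at least 500 bp with at least 95% identity elsewhere in the genome.

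Genes of the same pathways had their own contacts, counted for lists of genes that leave out the 4 members. They are described beside the median of 6 contacts and the 51.9% of promoter fragments with a contact in all 3 replicates. The share of all genes with a listed fragment is not given here. The first list was the axis of INK4 inhibitors, cyclin D kinases and RB, to which p15INK4b and p16INK4a belong. Its genes other than *CDKN2A* and *CDKN2B* all had a promoter fragment (9 of 9). Of these, 7 had a contact that every replicate called, and the median was 13 contacts. *CDK6*, a kinase that both inhibitors bind, led them with 33, 39 and 34 contacts per replicate. *CDKN2C* and *RB1* had none in all 3. Of the ARF and p53 genes, 2 of 4 had a listed fragment (*MDM2* and *CDKN1A* had none), and 1, *MDM4*, a p53 inhibitor, had a contact in all 3 (5, 9 and 6 per replicate). The methionine salvage genes had fragments for 7 of 7, 5 with a contact in all 3, with a median of 14 per fragment and *ADI1*, a dioxygenase of that pathway, highest at 24, 23 and 29 over its 2 fragments. The DMRT family had 6 of 6, 3 in all 3, a median of 7.5 and *DMRT1*, a regulator of testis differentiation, highest at 8, 11 and 7.

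Among the neighbours, 10 of 12 genes of the interferon cluster had a fragment, on 9 fragments in all. Of these genes 7 had a contact in all 3 replicates, and the median was 12 per fragment. The contacts of *IFNA1*, *IFNA2* and *KLHL9* include those with *MTAP* described above. *IFNE*, an interferon of epithelia, was the highest with 11, 15 and 14. Of the other neighbours 4 of 5 had one and 3 had a contact in all 3, with a median of 9. The highest of these was *CDKN2B-AS1* (9, 5 and 6), whose start lies in the *CDKN2A*/*CDKN2B-AS1* fragment itself.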

How the data were processed

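The measurements were promoter capture Hi-C contacts of 3 biological replicates of hESC-CM, 1 group by the labels. The authors mapped reads to GRCh37 with HiCUP and called contacts with CHiCAGO at default parameters; the versions were not given in the sources used here. The deposited values are CHiCAGO scores of at least 5, in 4 sets, 1 per replicate and 1 on the merged replicates, which was an alternative only. Scores are not counts, so no count test was run.

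Each contact was an unordered pair of fragments with identical coordinates, and the union of the 3 replicates was used, without the merged calls. A pair listed in both orders, possible only between promoter fragments, kept the higher score. Starts came from GENCODE v44 lifted to GRCh37. All 127138 fragments checked against GRCh37 began and ended at HindIII sites. Distances are between midpoints, and a mean score is over the replicates that called the contact. Shares have 95% Wilson intervals. Pairs of fragments were compared with an exact paired permutation test over replicates, adjusted by Benjamini-Hochberg over the 10 pairs. Blocks join fragments called in all 3 replicates with gaps of at most 30 kb. Near-identical sequence was searched with minimap2 2.31-r1302. Python 3.11.15, numpy 2.4.6, pandas 2.3.3, scipy 1.17.1 and matplotlib 3.10.9 were used. The overlap counts were tested on simulated data.

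The genes, lists and rules were chosen with earlier results of these data known. Named genes were the 4 members, genes whose promoters they contacted in all 3 replicates or shared most contacts with, promoters called with the stretch from *CDKN2B-AS1* to *DMRTA1*, the gene with the most contacts in each list and the 3 strongest contacts per fragment. The *MIR31HG* intron, the other fragments of each block, the contacts over 1 Mb and the list genes without a contact in all 3 replicates were chosen after their values were seen. Alternatives were scores of at least 7 and 10, each replicate left out, the merged calls, matching within 5 kb, transcripts tagged basic and contacts of at most 1 Mb.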

Additional observations from a re-analysis of the deposited data

How the results depend on the processing

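Of 87 values recomputed under the alternatives, 58 stayed close to those above (within 1.5 times for counts, the Wilson interval for the share, 1 SD between replicates for the distance), and none changed the order in which *MTAP* came first. With a score of at least 7 the unions of *MTAP*, *CDKN2A-DT*, *CDKN2A*/*CDKN2B-AS1*, *CDKN2B* and *DMRTA1* were 14, 0, 5, 8 and 5, and with at least 10 they were 6, 0, 1, 3 and 1. Contacts in the interferon cluster were then 10 and 5 (from 23), from the end of *CDKN2B-AS1* to *DMRTA1* 4 and 0 (from 8), and in *CDKN2B-AS1* beyond *CDKN2B* 0 and 0 (from 1, the *CDKN2B* promoter itself). In the *MTAP* gene body they were 4 (from 19) with at least 10. Fewer contacts pass a higher score by construction. On the merged replicates *CDKN2A-DT* had 0, the stretch of *CDKN2B-AS1* 2, that up to *DMRTA1* 16, and the median distance was 438 kb; the cause was not tested. Within 1 Mb *CDKN2A-DT* kept 1 contact and the median distance was 444 kb. With basic transcripts only, *CDKN2A-DT* drops out, its *CDKN2A* start being on no such transcript. The share called in all replicates was 52.9% when fragments within 5 kb were matched. Leaving out each replicate in turn gave unions of 25 to 29 for *MTAP*, 3 to 4 for *CDKN2A-DT*, 7 to 10 for *CDKN2A*/*CDKN2B-AS1*, 13 to 15 for *CDKN2B* and 6 to 8 for *DMRTA1*, shares in both remaining replicates of 50.8 to 53.6%, 18 to 21 contacts in the interferon cluster, 17 to 18 in *MTAP*, 1 to 1 in *CDKN2B-AS1*, 7 to 8 up to *DMRTA1* and median distances of 462 to 468 kb. The labels give 1 group only, so there were no groups to pair by replicate number. Depth was not measured here, and contacts scored under 5 are not listed.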

Other observations

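Scores on the merged replicates did not rise equally for all contacts called in each replicate. The merged score was divided by the mean of the replicates. For contacts with fragments that the calls do not list as a promoter side, it was 1.55 to 1.76 for the 10 of *MTAP*. It was 1.63 to 1.74 for the 7 of *CDKN2B* and 1.45 to 1.54 for the 4 of the *CDKN2A*/*CDKN2B-AS1* fragment. For the 4 *MTAP* contacts with other promoter fragments it was 0.935 to 1.61, with *IFNA2* at the low end, where the merged score was 16.63. For *DMRTA1* and the 2 fragments of the *MTAP* gene body it was 1.12 to 1.21. Over all contacts in all 3 replicates and on the merged set the median was 1.14 for 5298 contacts between promoter fragments and 1.42 for the other 42769. Only contacts between promoter fragments can be listed in both orders, with the higher score kept. How far this bears on the ratios was not tested.

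The merged replicates also listed contacts that no replicate had. The highest was *MTAP* with chr9:22255420-22256831, in the gene desert beyond the block described above, at 9, and *CDKN2B* with chr9:21816785-21818630, next to the *MTAP* gene body block, scored 7.94.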
